A study of Mus musculus with 3 samples.

Results

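Natural killer (NK) cells with few counts of Gzmc, the gene of granzyme C, were taken from the CD45+ cells of mouse YUMM1.7 melanomas by their raw counts. A member had at least 2 summed counts of Ncr1 and Klrb1c, at most 1 of Cd3d, Cd3e and Cd3g, fewer than 10 of C1qa, C1qb and C1qc, fewer than 5 of Gzmc, and at most 1 of the cell cycle genes Mki67, Top2a, Birc5 and Ube2c. The rule kept 1625 of 43730 deposited cells (3.72%). Of these, 980 came from 4-month-old mice, 286 from 12-month-old mice and 359 from 20-month-old mice. The members were thus chosen by measured counts, so the levels of the rule's own genes are a description and support nothing. The data cover mice of 3 ages whose subcutaneous tumours grew from 500000 injected YUMM1.7 cells, an established mouse melanoma line, and were taken 18 days later. Live cells, seen as DAPI-negative, that bound an antibody to CD45.2 were sorted, and 1 library per age was made with a 3′ single-cell kit, PIP-seq v4, which counts transcripts from their 3′ ends. Per the labels, each age had 7 mice. Whether they were pooled, and the strain and sex of the mice, are not given in the sources used here, and no treatment other than the tumour is named for any age. With 1 library per age, age and library cannot be told apart and no difference has a replicate check. All intervals are 95% intervals that cover counting error only.

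NK cells are innate lymphocytes that kill stressed or transformed cells by releasing perforin and granzymes, and that secrete interferon-gamma and chemokines. Whether they fire depends on the balance of activating receptors, such as NKp46 (Ncr1) and NKG2D (Klrk1), and inhibitory receptors that bind MHC class I, such as many Ly49 proteins of the Klra genes and the CD94/NKG2A pair (Klrd1 and Klrc1). Each NK cell shows only some Ly49 receptors, so one animal holds a mosaic of receptor combinations. In mouse tumours NK cells can also take on features of tissue-resident innate lymphoid cells (ILC1), which are marked by genes such as Itga1 and Cxcr6.

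The 3 libraries held 14393, 14653 and 14684 cells with median totals of 6789, 7411 and 6936 counts, in the order 4, 12 and 20 months that is used for every set of 3 values here. Members had median totals of 6243.5, 6118.5 and 5778 counts, and their summed counts, the depth behind each level, were 6584205, 1884506 and 2242837. Between 2 and 4 cell barcodes were shared by any pair of libraries. Levels are CPM, the members' summed counts scaled to a common total, and no level is compared between genes, since 3′ counts are not per length. A gene was called between ages when its mean over the 3 libraries was at least 20 CPM and its ratio at least 1.5-fold. A call was named library-wide when the ratio was also at least 1.5-fold the same way in 2 other sets of cells of the same libraries, a T cell gate and a macrophage gate without any count of Ncr1 or Klrb1c. The 12-month library stood apart in Gm47854, an unnamed gene model at 3.49, 1757 and 1.34 CPM in members and at 2.32, 1787 and 2.80 CPM in cells with at least 30 C1q counts.

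The members carried NK markers at every age. Ncr1, the NKp46 receptor, was at 689, 733 and 675 CPM and Klrb1c, the NK1.1 receptor, at 601, 594 and 589 CPM, and 86.3%, 85.3% and 87.7% of members held counts of both. Klra4 was at 796, 701 and 675 CPM, Klra8 at 1025, 1014 and 799.9 CPM, and Gzma, the gene of granzyme A, at 3862, 2501 and 1845 CPM. In cells with at least 30 C1q counts, which should lack these genes, Klra4 was at 43.1, 33.6 and 22.7 CPM, Klra8 at 65.1, 43.8 and 27.9 CPM and Gzma at 202, 150.0 and 96.6 CPM. Those levels are taken as the background of each library, and each lay far under the members' level in the same library. Eomes, the transcription factor that separates NK cells from ILC1, was at 99.9, 115 and 104 CPM against 6.72, 8.57 and 9.99 CPM in the C1q cells. Markers of other innate lymphoid and mast cells were nearly absent: the 13 listed genes summed to 21.7, 15.4 and 11.6 CPM, and Il5 was at 0 in all 3 libraries. The 11 listed melanoma and stroma genes summed to 88.5, 58.9 and 86.5 CPM, beside 65.3, 63.7 and 69.3 CPM in the C1q cells. Among them Mlana and Sox10, genes of melanoma cells, were at 0 in all 3 libraries. Mitf had a mean of 7.29 CPM over the 3 libraries and Pecam1 a mean of 45.2 CPM.

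**Figure D1:**
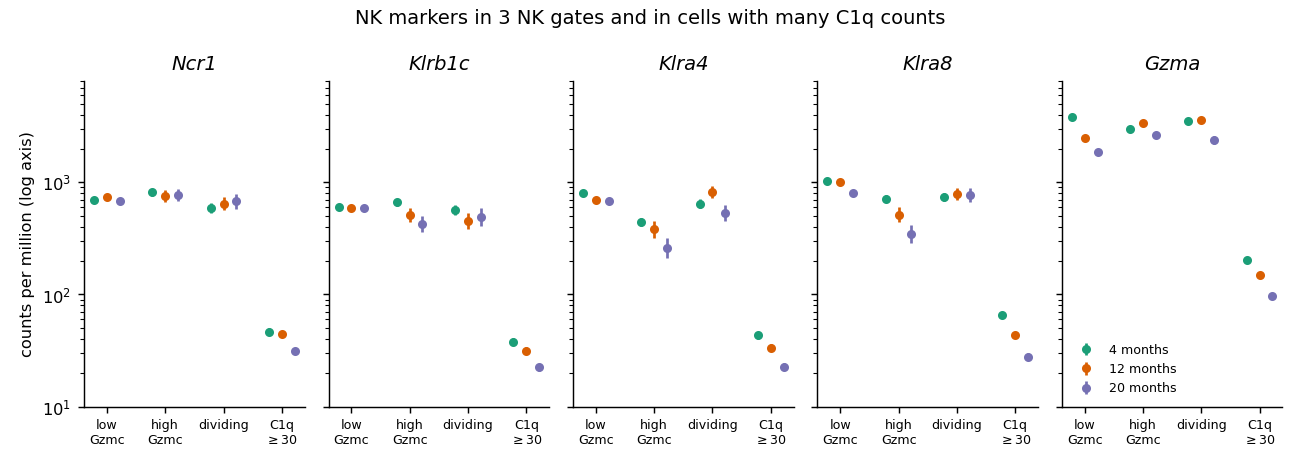
Levels of 5 NK markers in CPM (log axis), in low-Gzmc NK cells, high-Gzmc NK cells, dividing NK cells and cells with at least 30 C1q counts. Points are the 3 libraries by age and bars are exact Poisson intervals; every marker lies above its level in the C1q cells, and Gzma of low-Gzmc cells goes from 3862 at 4 months to 1845 at 20 months.

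Both edges of the rule bear on what follows. The first is the limit of 1 Cd3 count. Among all cells with at least 5 counts of Ncr1 and Klrb1c, 43.0% met it at 4 months (715 of 1663), 14.8% at 12 months (222 of 1504) and 27.5% at 20 months (279 of 1014). Cells with at least 30 C1q counts, which should hold no Cd3 of their own, met it in 33.0%, 9.25% and 17.7% of cases, with medians of 2, 5 and 3 Cd3 counts. The share of cells that pass thus moved in the same order by age in cells that should lack Cd3, and its part in the share of members was not tested. The second edge is the lower limit of 2 counts. Members with 2 to 4 counts of Ncr1 and Klrb1c made up 27.0%, 22.4% and 22.3% of all members (265, 64 and 80 cells), and carried much myeloid RNA. Their Lyz2, the lysozyme of macrophages and monocytes, was at 9856, 6693 and 5574 CPM, against 827, 561 and 610.0 CPM in members with 5 or more. Their Gzma was at 1180.3, 917 and 1064 CPM, against 4852, 2983 and 2073 CPM.

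Results are therefore given for all members, and where they differ also for 2 other sets chosen after the data were seen. The strict set is the 715, 222 and 279 members with at least 5 counts of Ncr1 and Klrb1c. The relaxed set takes such cells with up to 5 Cd3 counts, the other limits kept, and held 1505, 1078 and 827 cells. At the edges of the rule, 157 members of the 4-month library had exactly 2 counts of Ncr1 and Klrb1c, and 536 cells that met every other limit had 1. Gzmc stood at 0 in 55.0%, 60.8% and 67.7% of members. Only 16, 8 and 7 members had 4 Gzmc counts, the most allowed, and 20, 7 and 4 cells that met every other limit had 5.

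Low-Gzmc NK cells made up 6.81% of the 4-month library, with an exact Clopper-Pearson interval of 6.40 to 7.23. In the 12-month library the share was 1.95% (interval 1.73 to 2.19), and in the 20-month library 2.44% (interval 2.20 to 2.71). The 4-month library held the highest share, and its interval did not overlap the other 2. The 20-month share minus the 4-month share was -4.36 percentage points, with an interval of -4.85 to -3.89. For the 12-month library the same difference was -4.86 points, with an interval of -5.33 to -4.39. The order of the 12- and 20-month libraries depended on the limits used. In the relaxed set, which changes both the NK and the Cd3 limit, the shares were 10.5%, 7.36% and 5.63%, so that the 12-month library lay above the 20-month library. It also lay above with the rule applied after thinning (5.78% and 4.80%) and with fewer than 3 C1q counts (1.12% and 0.981%). With at least 5 NK counts and no Cd3 limit the shares were 11.6%, 10.3% and 6.91%, so that the 12-month library came near the 4-month library. The 20-month share minus the 12-month share was 0.493 points by the rule (0.157 to 0.830) and -1.72 points in the relaxed set. The 20-month share was under the 4-month share in both.

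**Figure D2:**
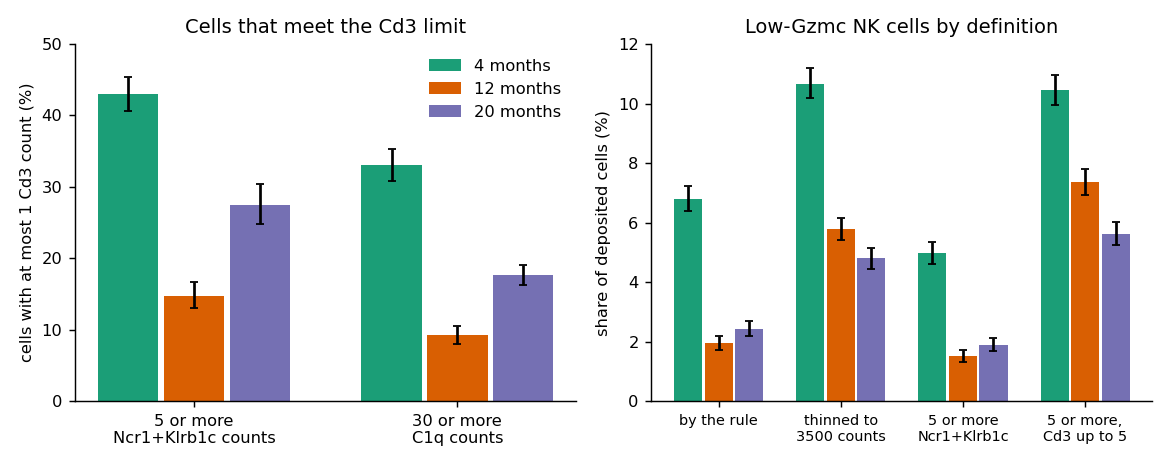
Left, percent of cells with at most 1 Cd3 count among cells with at least 5 counts of Ncr1 and Klrb1c and among cells with at least 30 C1q counts, by age. Right, low-Gzmc NK cells as percent of deposited cells under several definitions; bars show exact binomial intervals, and the 12-month share is 1.95% by the rule and 7.36% with up to 5 Cd3 counts.

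Past the limit for a call, low-Gzmc NK cells held less granzyme A RNA at both later ages. Granzyme B RNA passed that limit at 20 months only, and perforin RNA at neither age. Gzma, whose protease triggers death in target cells, fell by 1.07 on the log2 scale from 4 to 20 months (interval -1.11 to -1.02), which is 2.09-fold, and by 0.63 from 4 to 12 months (-0.67 to -0.58). Its level dropped at each age, from 3862 (3814 to 3909) over 2501 (2431 to 2574) to 1845 CPM (1789 to 1902), and the intervals did not overlap. In the strict set it fell by 1.23 on the log2 scale to 20 months, and in the relaxed set, at 4260.1, 3110.1 and 2160.4 CPM, by 0.98. At an equal depth of 3500 counts per cell, to which every cell was thinned with none left out, the median member held 6, 3 and 3 Gzma counts, and its upper quartile was 20, 10 and 8. The share of members with any Gzma count at that depth was 82.7%, 72.0% and 70.8% (91.8%, 83.9% and 79.1% before thinning). In cells with at least 30 C1q counts it was 49.8%, 35.1% and 20.7% after thinning (81.6%, 72.3% and 47.4% before), at medians of 9477, 10438 and 9243 counts per cell. The fall to 20 months was library-wide, since Gzma also went from 460.1 over 258 to 128 CPM in the T cell gate and from 158 over 124 to 72.4 CPM in the macrophage gate. The macrophage levels were small beside the members' own. High-Gzmc NK cells of the same libraries held Gzma at 2969.6, 3359 and 2653 CPM and dividing NK cells at 3505, 3623 and 2395 CPM, and both were highest in the 12-month library. The difference between these populations in their change with age was not tested.

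Among 11 cytotoxic granule genes at 20 CPM or more, 1 was called higher and 2 lower at 20 months. Over all 5797 genes at that level, 2.47% were called higher (143 genes) and 5.54% lower (321 genes). Gzmb, the caspase-activating granzyme B, was the other one called lower, at 4157, 3428 and 2709 CPM, a log2 ratio of -0.62 to 20 months (-0.66 to -0.58). It was also lower in the strict set, at 4955, 3986 and 2999.9 CPM, and in the relaxed set, at 4873, 3871 and 3033 CPM. The T cell gate held Gzmb at 3382, 2665 and 2120.0 CPM, and high-Gzmc NK cells at 4670.0, 4832 and 4099 CPM. The gene called higher was Gzmk, a granzyme best known from memory-like T cells, at 23.2, 34.5 and 56.2 CPM. Its ratio was 1.27 on the log2 scale (0.92 to 1.62), but the 5 cells with the most Gzmk held 42.1% of its counts at 20 months and 10.5% at 4 months. Gzmk was at 25.8, 41.8 and 52.8 CPM in cells with at least 30 C1q counts, so its level there moved with age in the same order. Prf1, the pore-forming perforin, was at 357, 383 and 315 CPM, and Nkg7, a granule membrane protein needed for release, at 3382, 3746 and 3464 CPM. Neither Prf1 nor Nkg7 was called, and the median log2 ratio of the 11 genes was -0.12, beside -0.06 over all genes tested. In the strict set 2 of 13 granule genes were called higher and 3 lower, where 2.9% and 2.09% of all genes were. In the relaxed set 1 of 11 was higher and 2 lower, where 1.52% and 0.939% of all genes were.

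Receptors of the Ly49 family gave no call with age. None of 8 listed Klra genes at 20 CPM or more was called at 12 or 20 months, in members or in the strict set. Klra4 (Ly49D, an activating receptor) and Klra8 (Ly49H, the activating receptor that binds a cytomegalovirus protein) had log2 ratios to 20 months of -0.24 (-0.32 to -0.16) and -0.36 (-0.43 to -0.28). These were larger in the strict set, at -0.49 and -0.57, where Klra8 stood at 1293, 1161 and 872 CPM. Members with 2 to 4 NK counts went the other way, with Klra4 at 322, 483 and 614 CPM and Klra8 at 301, 528 and 553 CPM. Klra7 (Ly49G, an inhibitory receptor) was at 667, 674 and 701 CPM, Klra13-ps, an annotated pseudogene, at 657, 669.7 and 758 CPM, and Klra1 (Ly49A, inhibitory) at 125, 183 and 134 CPM. Klra3 (Ly49C) at 318, 343 and 395 CPM and Klra9 (Ly49I) at 382, 296 and 295 CPM are uncertain apart from each other. The last 300 bases of their transcripts, where a 3′ kit reads, were 98.7% identical, while those of Klra4 and Klra8 were 57.2% identical. In the C1q cells both activating genes were lower at 20 months too (Klra4 from 43.1 to 22.7 CPM), at a far lower level.

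Klra4 (ENSMUSG00000079852.4, chr6:130043731-130067271, minus strand) and Klra8 (ENSMUSG00000089727.2, chr6:130115226-130129898, minus strand) are protein-coding neighbours in the cluster of Klra genes on mouse build GRCm38. Gzma (ENSMUSG00000023132.8) lies at chr13:113093825-113100981 and Gzmc (ENSMUSG00000079186.3) at chr14:56231441-56234656, beside Gzmb at chr14:56258838-56262260, all on the minus strand. The 300 bases around their start sites are shown because these genes mark the population, differ between low and high Gzmc, or carry the age difference. They come from RefSeq on GRCm38.p6, run 5′ to 3′ along the gene, and begin 250 bases before the start. Capitals mark the RUNX motif TGTGGT, searched on both strands (ACCACA on the other), which 16.8% of 32851 promoters of this length hold. The T-box motif GGTGTGA was searched likewise (TCACACC on the other strand), and 3.98% of the promoters hold it.
Klra4, chr6:130067222-130067521: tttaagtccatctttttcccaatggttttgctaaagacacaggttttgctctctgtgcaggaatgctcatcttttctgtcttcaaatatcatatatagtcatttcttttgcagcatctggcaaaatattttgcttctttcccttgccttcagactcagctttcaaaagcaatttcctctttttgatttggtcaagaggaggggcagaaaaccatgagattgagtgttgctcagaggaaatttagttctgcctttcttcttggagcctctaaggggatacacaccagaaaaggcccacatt
Klra8, chr6:130129849-130130148: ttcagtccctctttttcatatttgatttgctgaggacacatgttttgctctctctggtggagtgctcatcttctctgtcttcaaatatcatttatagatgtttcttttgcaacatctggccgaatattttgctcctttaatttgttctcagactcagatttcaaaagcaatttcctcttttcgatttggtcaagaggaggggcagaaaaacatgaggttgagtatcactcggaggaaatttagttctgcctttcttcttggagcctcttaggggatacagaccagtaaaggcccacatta
Gzma, chr13:113100932-113101231: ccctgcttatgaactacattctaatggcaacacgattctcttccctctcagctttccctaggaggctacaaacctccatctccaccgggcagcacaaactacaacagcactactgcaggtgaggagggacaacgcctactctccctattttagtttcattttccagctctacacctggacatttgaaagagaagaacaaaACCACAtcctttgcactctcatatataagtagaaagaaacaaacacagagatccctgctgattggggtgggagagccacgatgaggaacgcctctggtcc
Gzmc, chr14:56234608-56234907: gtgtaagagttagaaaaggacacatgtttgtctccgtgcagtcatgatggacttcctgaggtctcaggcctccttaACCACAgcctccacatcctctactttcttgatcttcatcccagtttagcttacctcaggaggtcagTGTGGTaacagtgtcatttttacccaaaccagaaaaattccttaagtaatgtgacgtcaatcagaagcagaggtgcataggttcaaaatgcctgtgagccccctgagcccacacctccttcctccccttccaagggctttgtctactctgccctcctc
The Klra4 and Klra8 stretches were 86.0% identical and held neither motif. Gzma held the RUNX letters once and Gzmc 2 times, and none of the 4 held the T-box letters. A match is a description of letters, and no match says only that the letters are not in this window.

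The same cells could be divided by Klra4 and Klra8, and a few other receptors then differed. Strict-set members with any count of either gene numbered 612, 184 and 208, and those with none 103, 38 and 71, that is 85.6%, 82.9% and 74.6% with. Over 5563 genes, 8 were at least 1.5-fold higher with Klra4 or Klra8 in all 3 libraries (0.144%) and 8 lower (0.144%); of 265 listed genes, 2 were higher and 5 lower. The split uses the cells' own counts and so describes a range, with no test. Klra13-ps was higher in cells with either receptor, at 855, 812 and 944 CPM against 366, 304 and 388 CPM, as was Klra9, at 511, 382 and 358 CPM against 327, 243 and 236 CPM. Being higher in all 3 libraries is what the call asks for, so it is no further support. Klra3, from which Klra9 is uncertain apart, was not called. The transcript ends of Klra8 and Klra9 were 79.2% identical, and those of Klra13-ps were not compared. Whether reads of Klra4 or Klra8 were counted for these genes was not tested.

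Lower in cells with Klra4 or Klra8 was Klrc1, the inhibitory NKG2A chain that pairs with CD94, at 320, 375 and 284 CPM against 581, 641 and 524 CPM. Klrb1b, the inhibitory NKR-P1B receptor, was at 75.8, 94.0 and 70.4 CPM against 156, 152 and 147 CPM. Cd226 (DNAM-1, an activating receptor for nectin-like ligands) was at 31.8, 38.3 and 32.9 CPM against 77.0, 111 and 84.3 CPM. These receptors are named because they were past 1.5-fold the same way in all 3 libraries, so that direction is no further support. Lag3, an inhibitory receptor, was at 39.4, 54.1 and 42.1 CPM against 64.2, 82.2 and 81.9 CPM, and Rora, a transcription factor of innate lymphoid cells, at 14.6, 11.6 and 13.0 CPM against 28.9, 45.2 and 21.1 CPM. At equal depth 37.7%, 34.3% and 30.6% of all members held counts of both Klra4 and Klra8, where independent detection would give 29.1%, 26.9% and 23.7%. Members with neither made up 29.6%, 30.1% and 33.1%. In the strict set 44.8%, 37.4% and 31.9% held both, where independent detection would give 38.7%, 31.9% and 26.9%, a smaller excess than in all members.

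**Figure D3:**
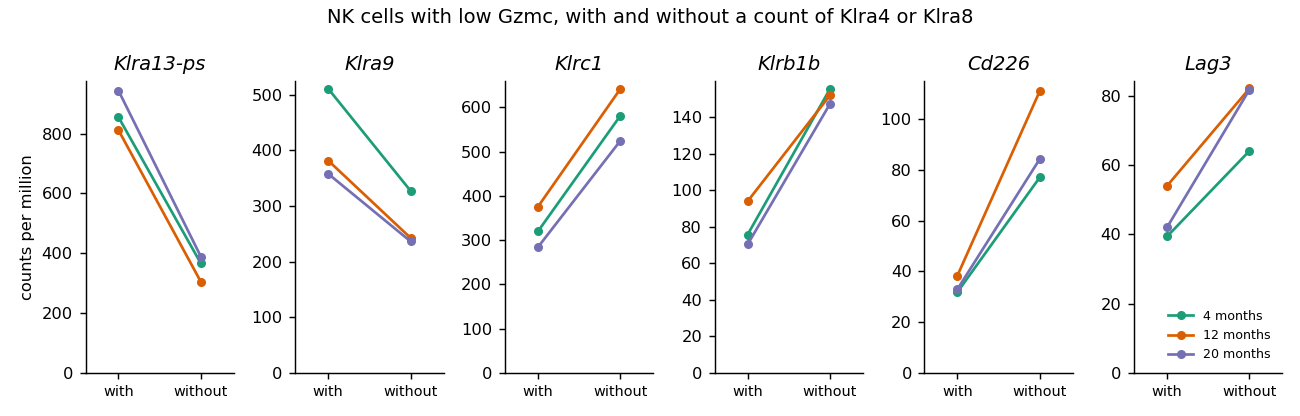
Levels in CPM of 6 genes in low-Gzmc NK cells with at least 5 counts of Ncr1 and Klrb1c, joined between cells with and without a count of Klra4 or Klra8, 1 line per age. Klrc1 goes up from 320 to 581 at 4 months where Klra4 and Klra8 are absent, while Klra13-ps goes down from 855 to 366.

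The other lectin receptors and signalling adaptors showed no call at 20 months: 0 of 10 genes of the NKG2, CD94 and NKR-P1 group and 0 of 18 activating receptors and adaptors. Klrk1 (NKG2D) was at 1261, 1313 and 1259 CPM and Klrd1 (CD94) at 1138, 1086 and 1196 CPM. Tyrobp, the DAP12 adaptor of activating Ly49 receptors, was at 2769.7, 2544 and 2547 CPM. These levels differed little between the libraries. At 12 months 3.62% of all genes tested were called lower. Plcg2, a phospholipase of receptor signalling, was then the 1 called of the 18, at 36.9, 18.6 and 26.3 CPM. Its direction did not hold, since the log2 ratio was 0.18 with the rule applied after thinning and 0.013 in the relaxed set. Klrg1, an inhibitory receptor of mature NK cells, was at 72.1, 82.2 and 51.7 CPM, and in the strict set, at 89.0, 97.6 and 54.8 CPM, it was called lower at 20 months. MHC class I genes, whose products the inhibitory receptors read, had no call among 13. B2m, their shared light chain, was at 12053, 11793 and 11399.8 CPM, and H2-K1 at 4487, 4758 and 4622 CPM.

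Interferon-gamma and chemokine genes were lower at 20 months in 4 of 10 listed cytokine genes and higher in none, with a median log2 ratio of -0.43. In the strict set 4 and in the relaxed set 3 were lower, with medians of -0.40 and -0.19. Of all genes tested, 5.54% were lower in members, 2.09% in the strict set and 0.939% in the relaxed set. Ifng, the main macrophage-activating cytokine of NK cells, was at 149, 117 and 92.3 CPM, a log2 ratio of -0.69 (-0.92 to -0.47). It was at 158, 152 and 91.8 CPM in the relaxed set. Its fall met the limits for library-wide, from 227 to 129 CPM in the T cell gate and from 28.3 to 16.5 CPM in the macrophage gate. That macrophage gate held only 164, 35 and 120 cells. Cells with at least 30 C1q counts held Ifng at 40.3, 48.0 and 31.5 CPM, which was highest at 12 months and short of 1.5-fold at 20 months. Ccl4, a chemokine that attracts lymphocytes and monocytes, was at 1084, 800.2 and 677 CPM (log2 ratio -0.68, -0.76 to -0.60). Ccl3, its close relative, was at 312, 179 and 142 CPM, but at 187, 154 and 165 CPM in the relaxed set, where it was not called. Cxcl10, an interferon-induced ligand of CXCR3, was at 927, 708 and 513 CPM in all members and at 535, 446 and 370.2 CPM in the strict set. Not called were Ccl5, a chemokine that attracts T cells and monocytes, at 1832, 1699 and 1293 CPM, and Xcl1, which attracts type 1 dendritic cells, at 2331, 2412 and 3063 CPM. Ccl5 was called lower at 20 months in the strict set, at 2066, 1612 and 1319 CPM.

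**Figure D4:**
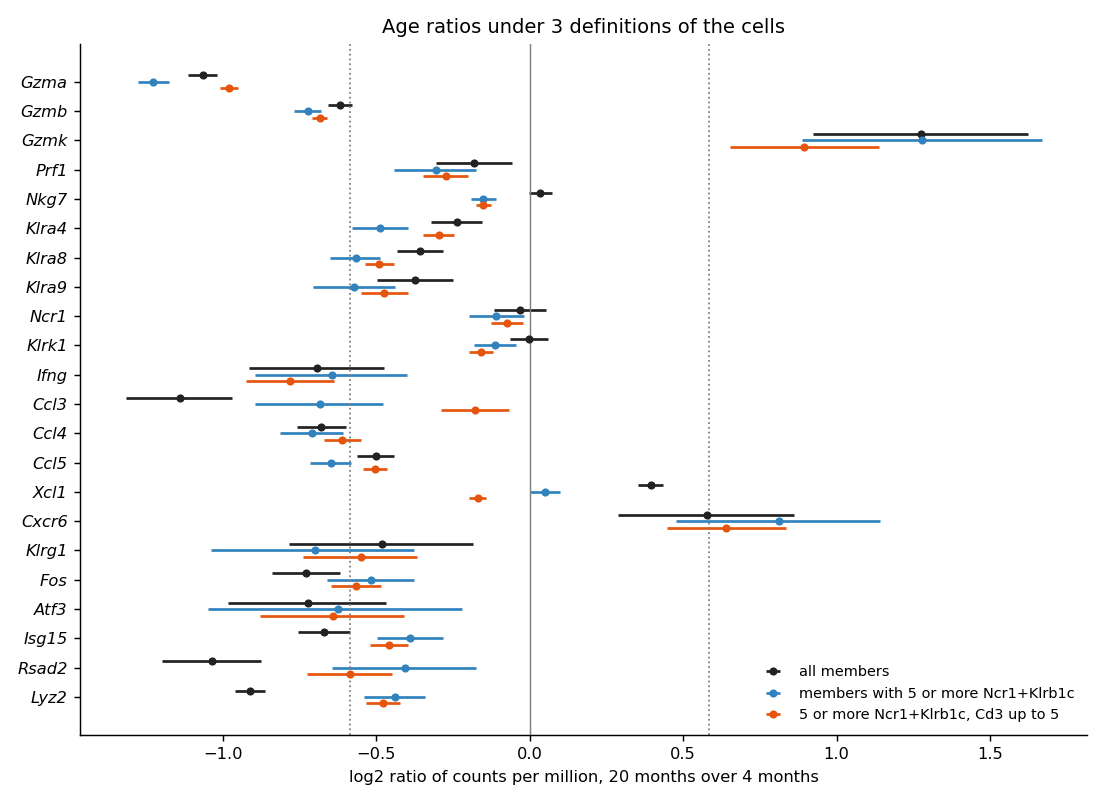
Log2 ratios of CPM, 20 months over 4 months, of named genes under 3 definitions of the cells, with exact conditional binomial intervals. Dotted lines mark 1.5-fold; Gzma lies at -1.07 by the rule, -1.23 in the strict set and -0.98 in the relaxed set, while Ccl3 goes from -1.14 by the rule to -0.18 in the relaxed set.

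Interferon response genes were lower at 20 months in 14 of 32 and higher in none, with a median of -0.49, but the count was far smaller without the members of few NK counts. In the strict set 1 of 31 was lower (median -0.33) and in the relaxed set 2 of 32 (median -0.42). Over all genes 5.54%, 2.09% and 0.939% were lower, and 1 of 31 lies near the share of the strict set. Isg15, a ubiquitin-like antiviral protein, was at 991, 770.0 and 623 CPM in all members and at 673, 614 and 514 CPM in the strict set. Ifitm3, which blocks virus entry and is abundant in myeloid cells, was at 1579, 948 and 770.0 CPM and at 567, 387 and 416 CPM. The summed level of the 32 genes was 13516, 10898 and 9194 CPM in all members, 22358, 16880.0 and 12544 CPM in members with 2 to 4 NK counts and 10248, 9080.2 and 8212 CPM in the strict set. Immediate early genes were lower in 4 of 20 (median -0.37). These were Fos, Zfp36, Atf3 and Cdkn1a, with Fos at 598, 588 and 361 CPM and Cdkn1a, a brake on cell division, at 173, 126 and 79.8 CPM. Fos was at 1258, 1453 and 818 CPM in the C1q cells and Cdkn1a at 576, 406 and 235 CPM, so both were lower at 20 months there too.

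Genes of maturation and residency gave few calls in all members. Of 11 early NK genes none was called at 20 months and 2 were higher at 12 months, when 2.43% of all genes tested were called higher (141) and 3.62% lower (210). They were Ltb, the lymphotoxin beta chain, at 65.9, 117 and 90.5 CPM, and Ccr7, the receptor for homing to lymph nodes, at 19.0, 35.6 and 24.5 CPM. The median log2 ratio of the early NK genes to 20 months was 0.37 in all members and 0.12 in the strict set. The Ccr7 call was library-wide, with 92.9, 159.9 and 124 CPM in the T cell gate. Cxcr6, a receptor of tissue-resident lymphocytes, was called higher at 12 months, at 46.0, 78.5 and 68.7 CPM, and Itga1, the CD49a integrin of ILC1, was called lower, at 28.4, 17.5 and 20.1 CPM. The 2 thus moved in opposite directions. Cxcr6 was at 53.3, 107 and 84.3 CPM in the C1q cells, in the same order by age. Of 18 listed transcription factors only Zeb2, a factor of terminal NK maturation that myeloid cells also express, was called lower at 20 months, at 165, 101 and 90.1 CPM. In the strict set Zeb2 was at 71.3, 51.2 and 53.6 CPM and was not called at 20 months. Of all genes tested in members, 5.54% were called lower at 20 months. The strict set then had 2 of 9 tissue-resident and ILC1 genes higher, where all members had 0 of 10. It also had 1 higher and 1 lower of 10 mature NK genes, and 1 higher of 18 transcription factors. Of all genes tested there, 2.9% were higher and 2.09% lower. The relaxed set had 1 of 9 tissue-resident and ILC1 genes higher, where 1.52% of all genes were. Eomes was not called, and Tbx21, the T-bet factor, was at 72.9, 95.5 and 75.8 CPM.

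Receptors for cytokines and the stress genes added a few calls. Of all genes tested, 2.47% were called higher and 5.54% lower at 20 months, and 2.43% higher at 12 months. A list with 1 call here lies near those shares. Il2rb, the receptor chain for interleukin-15 on which NK cells depend, was at 833, 844 and 797 CPM and was not called. Of 17 cytokine receptors, 2 were called lower at 20 months, Tgfbr1 at 55.4, 38.7 and 36.1 CPM and Il6ra at 26.9, 19.6 and 16.1 CPM. Tgfbr1 stood at 29.3, 20.1 and 28.3 CPM in the strict set, where no cytokine receptor was called. Of 12 inhibitory receptors 1 was lower, Entpd1 (CD39, an enzyme that breaks down extracellular ATP), at 48.3, 39.3 and 25.9 CPM. Entpd1 was not called in the strict set, where the 1 inhibitory receptor lower was Klrg1, nor in the relaxed set, where none was. The hypoxia and glycolysis list had 1 call among 17, Ddit4, a stress-induced brake on mTOR, which was higher at 28.1, 26.5 and 42.4 CPM. In the relaxed set its log2 ratio at 20 months was -0.064, with no call. The heat shock genes Hspa1a, at 52.2, 79.6 and 57.1 CPM, and Hspa1b, at 15.6, 32.4 and 25.4 CPM, were called higher at 12 months, and both calls were library-wide. Hspa1b was also called higher at 20 months, with a log2 ratio of 0.70 (0.21 to 1.18), and that call was library-wide too.

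Members with at least 2 summed counts of Itga1, Cxcr6, Inpp4b and Il7r were compared with members that had none, to see whether an ILC1-like share stood out. They numbered 195, 73 and 87 against 504, 111 and 163, with median totals of 6865, 6888 and 6264 against 5835, 6204 and 5643 counts. Cxcr6 was no lower in the C1q cells than in members, so a count of it need not be the cell's own. The division can therefore not show whether ILC1-like cells were present. Apart from the genes that made the division, none of the listed genes compared was at 20 CPM or more on average and at least 1.5-fold apart in the same direction in all 3 libraries. A division by Gzmc, 1 to 4 counts against 0, separated only Lyz2 among the same genes, at 2459, 1429 and 1259 CPM against 4023, 2362 and 1986 CPM.

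**Figure D5:**
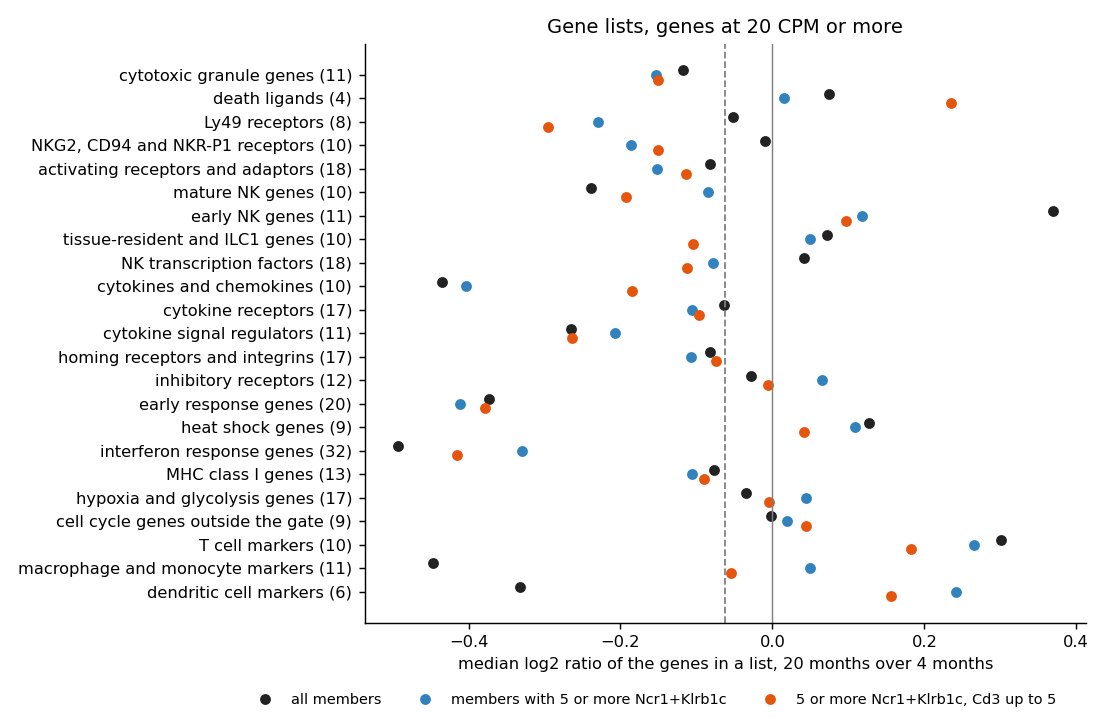
Median log2 ratio, 20 months over 4 months, of the genes at 20 CPM or more in each list (their number in all members in brackets), in all members, in members with at least 5 NK counts and with up to 5 Cd3 counts. The dashed line is the median of all genes tested, -0.06; the macrophage and monocyte list goes from -0.45 in all members to 0.05 in the strict set.

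Markers of other cells moved with age in the members. Of all genes tested, 2.47% were called higher and 5.54% lower at 20 months, and 2.43% higher at 12 months. In the strict set 2.9% were higher and 2.09% lower at 20 months. The macrophage and monocyte list had 1 of 11 genes called higher at 20 months, Apoe, and 4 lower, and its sum was 9782, 7924 and 7291 CPM in all members and 5329, 5518 and 5505 CPM in the strict set, where 2 of 9 were higher and none lower. The C1q cells held it at 24835, 24353 and 25938 CPM. Apoe, a lipid carrier of macrophages, was at 245, 419 and 432 CPM in members and at 2384, 3668 and 4453 CPM in the C1q cells. Of 10 T cell markers outside the rule, 1 was called higher at 20 months and 5 at 12 months. Cd8b1, the CD8 beta chain, was at 106, 195 and 175 CPM in members and at 128, 227 and 241 CPM in the C1q cells, and Cd4 was at 5.47, 5.84 and 7.13 CPM. The part of this RNA in the calls was not tested. With the most extreme ratios among genes at 50 CPM or more that were not library-wide, the members named myeloid genes: Ccl2, a monocyte attractant, was at 268, 144 and 68.7 CPM, Slfn4 at 182, 86.0 and 70.9 CPM and Chil3 at 138, 62.6 and 51.3 CPM. In the strict set these stood at 71.1, 49.1 and 33.4 CPM, 63.9, 32.5 and 46.1 CPM, and 35.6, 15.9 and 26.5 CPM. The genes called higher in this way were mostly small nucleolar or unnamed gene models and pseudogenes, among them Gm24407 at 35.8, 61.6 and 71.3 CPM.

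How many genes were called depended on which cells were counted. In the strict set 161 of 5544 genes were higher at 20 months (2.9%) and 116 lower (2.09%), and 106 and 70 of these were also called in all members. At 12 months the strict set gave 177 higher (3.19%) and 145 lower (2.62%). In the relaxed set 84 of 5536 were higher at 20 months (1.52%) and 52 lower (0.939%), and at 12 months 101 were higher (1.82%) and 40 lower (0.723%). With ratios centred on the median gene, all members gave 198 higher and 239 lower in place of 143 and 321. Library-wide calls included Ppfia2, at 228, 24.9 and 8.47 CPM in members and 178, 12.6 and 34.2 CPM in the C1q cells, and Rab10os, a long noncoding RNA, at 44.3, 39.3 and 129.7 CPM and 40.5, 37.0 and 128 CPM.

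High-Gzmc NK cells, which met the same limits but had at least 5 Gzmc counts, numbered 150, 52 and 48. The rule itself divides these cells, so their ratios are a description with no test. Low-Gzmc members held more Klra4 and Klra8 and less Gzmd. Klra4 was at 796, 701 and 675 CPM against 442, 380.0 and 259 CPM in high-Gzmc cells, and Klra8 at 1025, 1014 and 799.9 CPM against 712, 516 and 346 CPM. Low-Gzmc cells were higher than high-Gzmc cells in every library. Dividing NK cells held Klra4 at 644, 824 and 534 CPM, above low-Gzmc cells at 12 months, and Klra8 at 741, 789 and 769 CPM. Neither gene was called between low-Gzmc and dividing cells. Gzmd, a neighbour of Gzmc, was at 4.25, 3.18 and 1.78 CPM against 71.6, 67.8 and 346 CPM. Gzmb, which also lies beside Gzmc, was at 4157, 3428 and 2709 CPM against 4670, 4832 and 4099 CPM and was not called. With at least 5 NK counts on both sides Gzmb was higher in low-Gzmc cells at 4 months, at 4955 against 4645 CPM, and lower at 12 and 20 months. Klrg1 was at 72.1, 82.2 and 51.7 CPM against 125, 171 and 224 CPM, and Cd96, an inhibitory receptor for the ligand that DNAM-1 also binds, at 75.3, 83.8 and 65.1 CPM against 113, 133 and 125 CPM. Neither Klrg1 nor Cd96 was called with at least 5 NK counts on both sides. Of 5741 genes, 104 were at least 1.5-fold higher in low-Gzmc cells in all 3 libraries (1.81%) and 16 lower (0.279%). Most of the 10 highest were myeloid genes, such as Alox5ap, Plbd1, Lyn and Mpeg1, and Lyz2 was at 3264, 1990.4 and 1735 CPM against 699, 725 and 914 CPM.

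With at least 5 NK counts on both sides, 22 of 5540 genes were higher in low-Gzmc cells (0.397%) and 14 lower (0.253%). Klra4 stayed at 971, 767 and 692 CPM against 461, 431 and 305 CPM, and Klra8 at 1293, 1161 and 872 CPM against 738, 541 and 422 CPM. Pim2, a survival kinase, was at 177, 183 and 164 CPM against 107, 93.5 and 100.4 CPM. S100a4, a calcium-binding protein of motile effector cells, was lower in low-Gzmc cells, at 168, 185 and 182 CPM against 321, 481 and 536 CPM. Gzmd was at 4.16, 2.77 and 1.73 CPM against 51.1, 76.8 and 263 CPM and Gzme at 1.87, 1.38 and 1.15 CPM against 30.8, 6.68 and 128 CPM. These genes are named because they were past 1.5-fold the same way in all 3 libraries, so that direction is no further support. The Gzme level of 6.68 CPM rests on few counts, since the 45 high-Gzmc cells at 12 months held 299351 counts in all. The genes of this comparison and of the split by Klra4 or Klra8 that are not in a list were named after their values were seen. Against dividing NK cells (87, 39 and 37 cells), 66 of 5934 genes were higher in low-Gzmc members (1.11%) and 158 lower (2.66%). All 16 listed cell cycle genes outside the rule were lower, as cells were divided by other genes of that kind, with Stmn1, a microtubule regulator, at 47.8, 72.7 and 49.5 CPM against 452, 846 and 480 CPM.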

How the data were processed

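Counts per gene and cell were deposited by the authors as 1 matrix per library. STAR 2.7.10a and mouse build GRCm38 are named per the submitters' processing notes; the annotation and cell filters are not given in the sources used here. All 55401 genes and all deposited cells entered, and no columns were left unused. Members and gene lists were chosen with earlier results of these data known. Counts of the cells in a gate were summed per library and scaled to CPM by their total over all genes, with exact Poisson intervals for levels, exact conditional binomial intervals for ratios and Clopper-Pearson intervals for shares. No test was possible with 1 library per age. Between gates of a library, a call needed at least 1.5-fold in the same direction in all 3 libraries. Cells were thinned to 3500 counts where shares of cells are compared, and no cell was shallower.

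The T cell gate had at least 3 Cd3 counts, no Ncr1 or Klrb1c and fewer than 10 C1q counts, and itself held Lyz2 at 3993, 3226 and 3000.3 CPM. The macrophage gate had at least 10 C1q counts and no Ncr1, Klrb1c or Cd3 count (164, 35 and 120 cells). Doublets were not removed. Scrublet, as in scanpy 1.11.5, with an assumed rate of 6%, marked 33, 11 and 9 members (3.37%, 3.85% and 2.51%). Named genes were the markers, called members of each list (or the 2 to 4 highest), and the most extreme ratios with age at 50 CPM or more, 10 each way for 20 months and 5 for 12 months, library-wide ones apart; for low against high Gzmc they were the 10 with the largest smallest ratio, and the 50 CPM limit was applied there too. Positions are from GENCODE M21, to which 54349 of 55401 gene IDs (98.1%) matched, and promoters from RefSeq. Calculations used Python 3.11.15, numpy 2.4.6, pandas 2.3.3, scipy 1.17.1 and Biopython 1.88, and the script for calls was checked on simulated data.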

Additional observations from a re-analysis of the deposited data

Results flagged for a closer look

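Slc5a6, a vitamin transporter gene, was at 51.6, 104 and 20.5 CPM in low-Gzmc NK cells at 4, 12 and 20 months. From 4 to 12 months its log2 ratio was 1.01 in these cells, while it went the other way in the T cell gate (57.0, 32.6 and 51.5 CPM) and in cells with at least 30 C1q counts (65.9, 44.8 and 60.2 CPM). The log2 ratio in members was -0.48 with the rule applied after thinning and -0.41 in NK cells with at least 5 NK counts and up to 5 Cd3 counts, so the direction depended on the definition. The 5 cells with the most Slc5a6 held 64.7%, 98.5% and 93.5% of its counts in the members. The difference between the populations was not tested.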

How the results depend on the processing

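No paired analysis was possible because each age had 1 library and no replicate numbers. The share of members was lower at 12 and at 20 months than at 4 months under each definition tried, but its size moved. The 12-month gap depended strongly on the Cd3 limit. Where that limit was dropped and at least 5 NK counts were asked for, the 12-month minus 4-month difference shrank to -1.29 (interval -2.01 to -0.573). The 20-month minus 4-month difference of those cells stayed large, with a value of -4.65 (interval -5.31 to -3.99). The 20-month minus 4-month difference was -5.87 points with the rule applied after thinning, -3.54 with at least 3 NK counts, -3.07 with at least 5, -1.85 with no Cd3 count, -3.49 with fewer than 2 Gzmc counts and -3.67 with fewer than 3 C1q counts. The 12-month minus 4-month difference was -4.00 with at least 3 NK counts, -3.45 with at least 5, -2.21 with no Cd3 count, -4.05 with fewer than 2 Gzmc counts, -3.53 with fewer than 3 C1q counts and -3.10 in the relaxed set, which like the limit of 5 was chosen after seeing the data.

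Numbers of genes called depended on which cells and limits were used. At 20 months against 4 months the number higher was 262 with no Cd3 count, 240 with fewer than 3 C1q counts, 84 in the relaxed set, 234 without mitochondrial and ribosomal protein genes in the total, 279 with the macrophage gate's level taken off, 37 at 50 CPM and 23 at 2-fold. The number lower was 81 with the rule after thinning, 184 with at least 3 NK counts, 116 with at least 5, 537 with no Cd3 count, 569 with fewer than 3 C1q counts, 52 in the relaxed set, 184 with the macrophage level off, 140 at 50 CPM and 62 at 2-fold. At 12 months the number higher was 439 with no Cd3 count, 218 with fewer than 3 C1q counts, 286 with the macrophage level off, 38 at 50 CPM and 26 at 2-fold. The number lower was 66 after thinning, 733 with no Cd3 count, 385 with fewer than 3 C1q counts, 40 in the relaxed set, 64 at 50 CPM and 28 at 2-fold. Fewer genes or fewer cells entered several of these, and the cause of the other moves was not tested.

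Between low and high Gzmc, leaving out 1 library in turn gave 165 to 208 genes higher and 42 to 77 lower, since a call then needs only the other 2 libraries. The number higher was 34 after thinning, 32 at 50 CPM, 26 at 2-fold and 22 with at least 5 NK counts on both sides. The number lower was 25 after thinning, 7 at 50 CPM and 6 at 2-fold.

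Among log2 ratios of named genes past the 1.5-fold limit, some changed sign. At 20 months they were Stxbp3-ps (-0.66) with the macrophage level off, Fn1 (0.16), Gbp2 (0.049) and Cd68 (0.049) with at least 5 NK counts, Ddit4 (-0.064) in the relaxed set and Fscn1 (0.12) with no Cd3 count. At 12 months Slc5a6 (-0.48), Plcg2 (0.18) and Egr1 (0.099) changed sign after thinning, and Slc5a6 (-0.41), Plcg2 (0.013), Egr1 (0.14) and Cxcl9 (0.27) in the relaxed set. With the macrophage level off Fn1 was at 0.19 and Cd8a at -2.80, with at least 3 NK counts Fscn1 was at -0.089, and without outlier cells S100a8 was at -0.27. Ratios within the limit changed sign under at least 1 alternative too. At 20 months these were S100a8 (from -1.51 to 1.04), Cbfa2t2, Cmss1, Egr1, H1f2, Hspa1a, Itga1, Klrb1c, Ncr1 and Stmn1, and at 12 months Atf3, Ddit4, Entpd1, Fos, Gm28438, Klra8, Klrb1c, Ncr1, Slpi and Zfp36. The cause was not tested. Genes near 20 CPM rest on few counts at 12 and 20 months, where members were fewest, so their ratios are the least precise.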
